A study of Mus musculus with 9 samples.

Results

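The 9 genes described here encode inhibitors of proteases: the secreted trypsin inhibitor Spink1, 7 serpins (Serpini1, Serpini2, Serpina3n, Serpina3m, Serpina3g, Serpinb1a and Serpinb6a) and the leukocyte elastase inhibitor Slpi. They were chosen by gene symbol, and all 9 were found among the 17132 genes of the table. Messenger RNA was measured in pancreas of wild-type C57BL/6 mice, with 3 libraries in each of 3 groups. Control mice (libraries 43, 44 and 45) had 7 hourly intraperitoneal injections of saline and saline as medication. Model mice (56, 57 and 59) were injected with caerulein, an analogue of cholecystokinin that overstimulates acinar cells, on the same schedule, with lipopolysaccharide (LPS) at the last injection, and had saline as medication. QYD mice (65, 66 and 68) had the caerulein and LPS injections and were given the herbal preparation Qingyi Decoction at 0 and 8 h. All pancreases were taken at 24 h, so every value below is from 1 time point of 1 injury. The mice carry no transgene or deletion in the labels, and no age is stated in the labels used here.

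Acinar cells store trypsin and the other digestive proteases as inactive zymogens. SPINK1 is packed with them in zymogen granules and blocks trypsin molecules that become active too early, and loss of its function predisposes to pancreatitis. Serpins are a second family of inhibitors, which trap their target protease by a change of shape that inactivates both partners. Some serpins are secreted, such as Serpina3n and those of the I group. Others act inside the cell, among them Serpina3g and the B group, of which several protect the cell from the proteases of leukocyte granules.

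Each library held between 19112923 and 20212744 estimated read counts. In Control the 50 most abundant genes took 90.6% to 91.1% of them, in Model 64.6% to 70.2% and in QYD 65.6% to 71.9%. Levels are therefore given on 2 scales. CPM are read counts relative to library totals scaled by TMM, a method that sets the typical gene equal between libraries, and all directions below are on this scale unless another is named. Relative to unscaled totals, the median gene had a log2 fold change of 2.19 in Model versus Control and 2.09 in QYD versus Control, against 0.04 and 0.06 on the TMM scale. TPM, deposited by the authors, are transcript shares of a library corrected for transcript length and serve to compare genes with each other. The tissue label was borne out by 14 of 14 acinar markers. Their summed CPM were 675432 to 817653 in Control, 107014 to 144177 in Model and 98872 to 134731 in QYD. In TPM the drop was smaller, with sums of 286711 to 335267, 242528 to 266259 and 213212 to 224748 in the same order. In such bulk tissue, fewer cells of a type and less RNA per cell cannot be told apart.

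After caerulein with LPS, the acinar inhibitors Serpini2 and Spink1 stood lower relative to the typical gene, while on library totals Spink1 stood higher. Of the 9 genes, 8 changed in Model versus Control (edgeR quasi-likelihood test, adjusted p under 0.05), 5 upward and 3 downward. Among all 12828 tested genes 42.6% were called, 21.3% upward and 21.3% downward. Serpini2, Spink1 and Serpini1 were lower (the last pair higher on library totals), and Serpina3n, Serpina3m, Slpi, Serpinb6a and Serpinb1a were higher. Serpina3g was not called. The median log2 fold change of the 9 genes was 0.96, beside 0.04 over all tested genes. The Model and Control libraries did not overlap for 7 of the 9 genes, 4 higher and 3 lower, beside 52.3% of all genes (27.4% and 24.9%). On library totals alone 8 of the 9 genes were called higher and 1, Serpini2, lower, where 94% of all genes were called higher and 0.943% lower. Leaving out Control 43 or Control 44 reduced the called genes from 8 to 6.

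**Figure D1:**
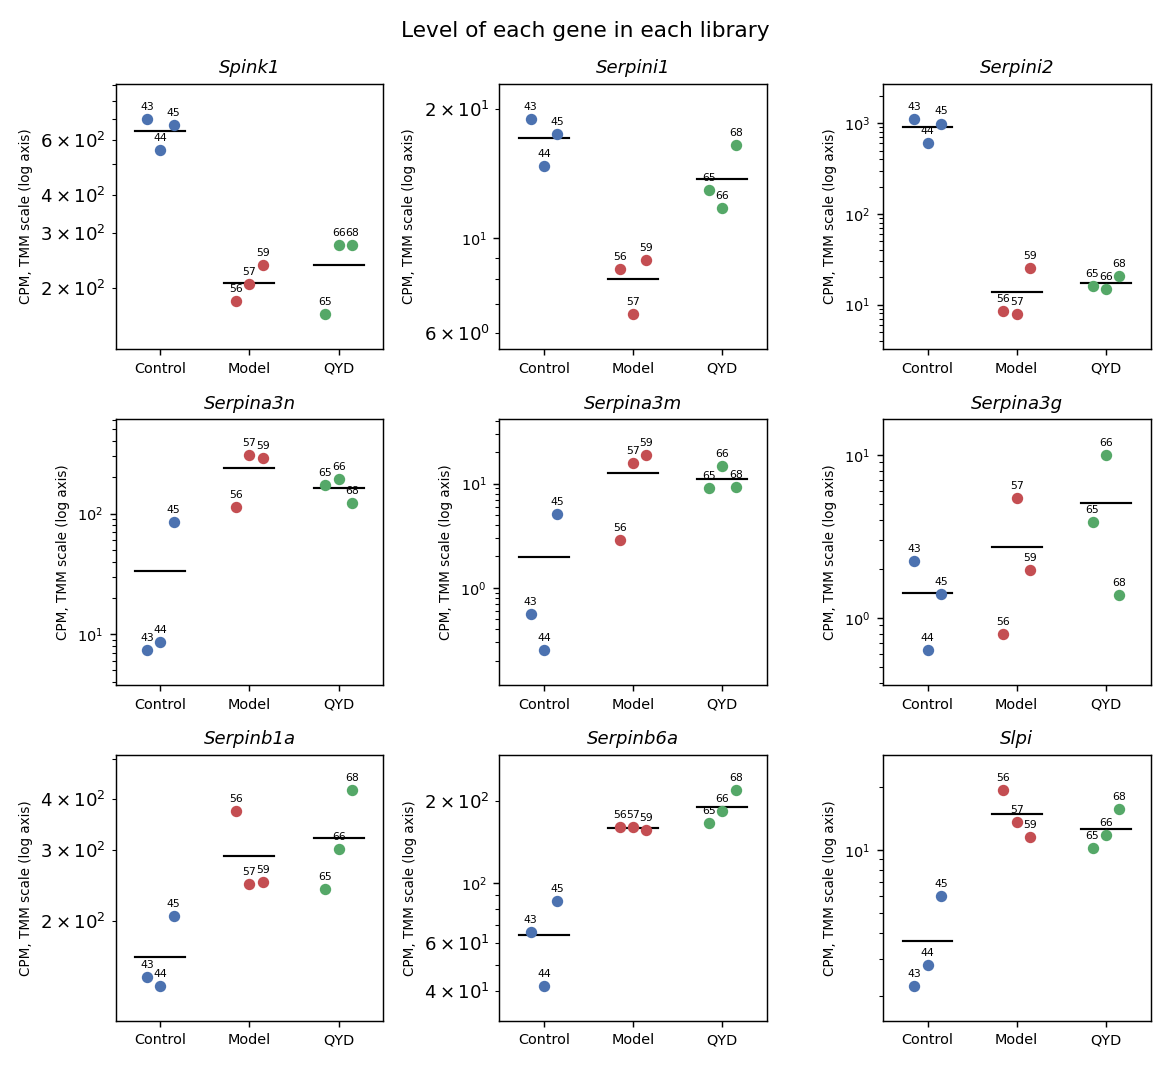
Level of each of the 9 inhibitor genes in each library, as CPM on the TMM scale on a log axis; points are libraries with their mouse numbers and lines are group means (n = 3). Spink1 and Serpini2 lie lower in all Model and QYD libraries than in any Control library on this scale, and on library totals Spink1 lies higher. Control 45 lies above the other Control libraries in Serpina3n, Serpina3m and Slpi.

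Spink1 (Gene ID 20730, chromosome 18, 43728069 to 43737237, GRCm38.p6) encodes the trypsin inhibitor of the pancreas. Its level was 700.1, 555 and 666 CPM in Control 43, 44 and 45, and 182, 206 and 237 CPM in Model 56, 57 and 59. Every Model library lay below every Control library. The log2 fold change was -1.62 ± 0.20 (SE, n = 3 per group; adjusted p = 0.000156, edgeR), and on library totals it had the other sign, at 0.52 ± 0.16 (adjusted p = 0.00704, edgeR). The deposited TPM likewise stood higher in Model, at 1295 ± 36.1 against 867 ± 93.7 (SD, n = 3). Spink1 therefore lost ground to the typical gene while its share of all transcripts grew.

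The protein acts on trypsin, so its transcript was also set against those of the trypsinogen genes within the same library, a ratio that no scaling between libraries can alter. The 11 trypsinogen genes of the table summed to 183567 ± 9916 TPM in Control, 136999 ± 8282 in Model and 163911 ± 30430 in QYD (SD, n = 3). For every 100 TPM of trypsinogen there were 0.488, 0.440 and 0.487 TPM of Spink1 in Control 43, 44 and 45. In Model 56, 57 and 59 there were 0.898, 1.04 and 0.910, so the groups did not overlap. The ratio was 2.01-fold higher in Model (exact two-sided permutation test, p = 0.1, the smallest that 3 against 3 libraries allow). Taking only the trypsinogens named Prss1, Prss2 and Prss3 gave a log2 difference of 0.78, and the sign was the same. In QYD 65, 66 and 68 the ratio was 0.822, 0.976 and 0.683. It overlapped Model (log2 difference -0.21, exact two-sided permutation p = 0.3) and was 1.74-fold higher than in Control without overlap (exact two-sided permutation p = 0.1, again the smallest possible).

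**Figure D2:**
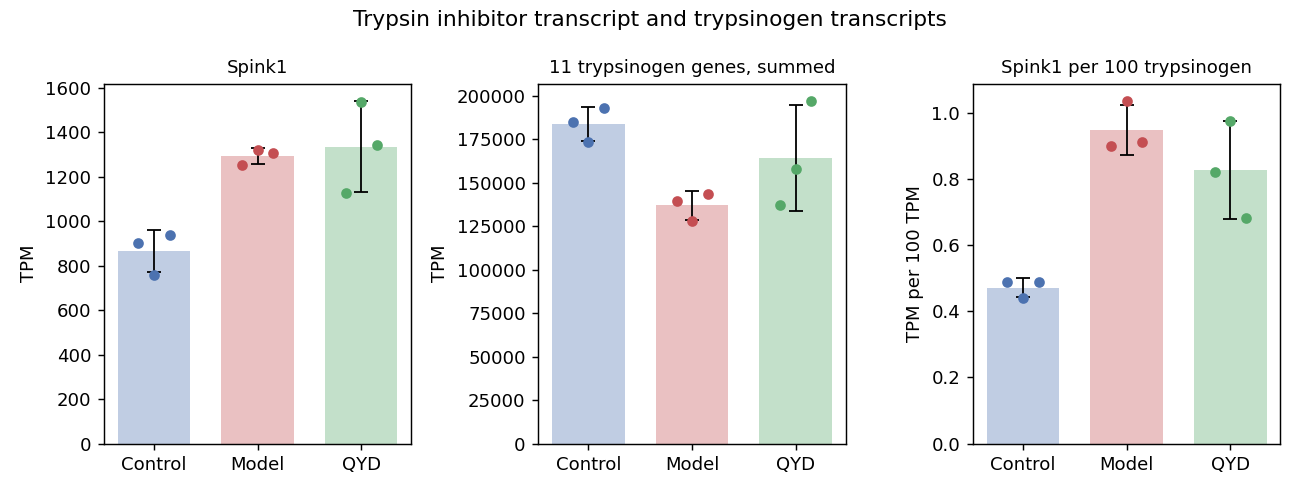
TPM of Spink1, summed TPM of 11 trypsinogen genes, and Spink1 TPM per 100 trypsinogen TPM in each group; points are libraries, bars means and error bars SD (n = 3), with all axes from 0. The ratio lies between 0.440 and 0.488 in Control and between 0.683 and 1.04 in the Model and QYD libraries.

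The trypsinogen genes themselves did not move as one. Of 10 tested trypsinogen genes, 5 fell and 1 rose in Model versus Control, with a median log2 fold change of -1.61 (0.51 on library totals, where 5 were called higher and 3 lower). The trypsinogen gene 2210010C04Rik fell by 3.37 on the log2 scale (SE 0.27, adjusted p = 7.71e-06, edgeR). Prss2, the major anionic trypsinogen, fell by 2.44 (SE 0.23, adjusted p = 2.24e-05, edgeR), and on library totals it stood at -0.30 (SE 0.12). Chymotrypsins and elastases fell in 7 of 7 cases, with a median of -3.08 (on library totals 6 lower and 1 higher, median -0.94). Genes whose levels followed Spink1 most closely over the 9 libraries, out of 4820 considered, were Cd320 (Pearson r = 0.992 of log2 CPM), Ndufa6 (0.991) and Atp5j2 (0.990). The libraries fall into groups that differ in these genes, so r describes that split as well as the order within groups.

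Serpini2, known as pancpin, is a secreted serpin of the exocrine pancreas whose loss in mice leads to pancreatic insufficiency. On the TMM scale it had the largest change of the 9 genes, whereas on library totals Serpina3n, Serpina3m and Slpi changed by more. Its level was 1121, 602 and 994 CPM in Control, and 8.41, 7.86 and 25.1 CPM in Model 56, 57 and 59. The lowest Control library lay far above the highest Model library. The gene had a log2 fold change of -6.04 ± 0.49 (SE, n = 3 per group; adjusted p = 9.19e-06, edgeR), a 65.8-fold lower level, and -6.80 without Model 59. On library totals the gene also fell, by 3.94 on the log2 scale (SE 0.37). In estimated counts, 4731 to 8017 per Control library were left with 264 to 729 per Model library. Of the 9 genes, Serpini2 and Spink1 were the leading ones in Control by TPM, and Serpini2 moved from the second place to the sixth in Model.

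Genes close to Serpini2 over the 9 libraries included Tmed11 (Pearson r = 0.996 of log2 CPM) and Tmed6 (0.994). Both belong to the p24 family of cargo receptors of the early secretory pathway. Tmed11 went from 159 ± 35.9 CPM in Control to 2.55 ± 1.42 in Model and 4.34 ± 0.74 in QYD (SD, n = 3). Spink1 itself had r = 0.964 with Serpini2.

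Serpini2 (Gene ID 67931, minus strand) and Serpini1 (Gene ID 20713, plus strand) lie near each other on chromosome 3, at 75242357 to 75270078 and 75557493 to 75642523 (GRCm38.p6). The genes beside them did not change in the same way. Pdcd10, a regulator of vascular integrity whose annotated span (75516490 to 75556852, minus strand) ends just before that of Serpini1, had 10.3 ± 3.41 CPM in Control and 10.9 ± 2.00 in Model (log2 fold change 0.09 ± 0.25, adjusted p = 0.8, edgeR). Golim4, a Golgi membrane protein, had 13.4 ± 0.30 and 14.2 ± 1.32 CPM (0.08 ± 0.13, adjusted p = 0.633, edgeR). On library totals both were called higher, at 2.26 and 2.23, close to the median gene. Wdr49 and Zbbx were too low to be tested.

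Serpini1 encodes neuroserpin, an inhibitor of tissue plasminogen activator made mainly by neurons and secretory cells. Its level was low throughout, at 19.0, 14.8 and 17.5 CPM in Control and 8.47, 6.64 and 8.90 CPM in Model. The groups did not overlap. Its log2 fold change was -1.10 ± 0.17 (SE, n = 3 per group; adjusted p = 0.000582, edgeR), and on library totals it was 1.05 ± 0.18, the opposite direction. Of 10 neuron and glia markers 3 were tested, of which 1 rose and none fell in Model versus Control. The 10 summed to 2.80 to 4.96 CPM in Control, 4.69 to 6.85 in Model and 4.36 to 5.83 in QYD, and Syt1, S100b, Gfap and Sox10 were among those with under 10 counts in every library. The summed CPM of 12 islet cell markers were 872 to 1308 in Control, 177 to 376 in Model and 124 to 219 in QYD. Their summed TPM were 777 to 1253, 644 to 1642 and 514 to 709 in the same order. In TPM, Model overlapped both other groups, while every QYD library lay below every Control library. The part of these cells in the Serpini1 level was not tested. Its target protease Plat rose, from 4.54 ± 1.45 to 18 ± 13.3 CPM (log2 fold change 1.98 ± 0.62, adjusted p = 0.0238, edgeR). Model 56 stood highest in Plat, at 33.3 CPM, beside 11.6 and 9.04 CPM in Model 57 and 59, all above Control (3.08 to 5.98 CPM). In QYD versus Control Plat was not called (1.36 ± 0.62, adjusted p = 0.102, edgeR), while on library totals it was called higher, at 3.33.

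The promoter of Serpini2 is shown because this gene had the largest change on the TMM scale, and that of its neighbour Serpini1 for comparison. RefSeq promoters (GRCm38.p6), 250 bases before to 50 after the start, were available for 6 of the 9 genes. Each was searched on both strands for the STAT motif TTCNNNGAA, the NF-kB motif GGGANTTTC, the AP-1 motif TGANTCA, the interferon response motif GAAANNGAA, the box TTTCCCA and the E-box CANNTG. Of 32851 promoters of the same length, 8.30% held the STAT motif, 1.11% the NF-kB motif, 7.81% the AP-1 motif, 8.56% the interferon motif, 8.06% the TTTCCCA box and 72.3% an E-box. In the sequences, written 5′ to 3′ on the gene's own strand, capitals mark every match. A match describes the letters only. The Serpini2 window is chr3:75270029-75270328 on the minus strand, and that of Serpini1 is chr3:75557243-75557542 on the plus strand.
Serpini2: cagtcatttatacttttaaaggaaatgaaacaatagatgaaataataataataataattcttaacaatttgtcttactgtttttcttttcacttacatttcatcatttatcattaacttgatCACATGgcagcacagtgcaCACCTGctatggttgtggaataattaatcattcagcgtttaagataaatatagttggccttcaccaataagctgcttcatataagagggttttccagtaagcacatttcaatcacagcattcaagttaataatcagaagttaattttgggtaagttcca
Serpini1: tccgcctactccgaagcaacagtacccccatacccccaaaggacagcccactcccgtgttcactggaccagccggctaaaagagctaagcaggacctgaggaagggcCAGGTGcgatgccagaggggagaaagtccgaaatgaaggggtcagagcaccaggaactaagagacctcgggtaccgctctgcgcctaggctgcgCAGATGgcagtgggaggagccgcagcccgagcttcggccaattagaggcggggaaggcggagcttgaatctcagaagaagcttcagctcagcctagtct
Serpini2 holds E-boxes at -128 and -109 from its start, and Serpini1 at -143 and -49. None of the other 5 motifs was found in either window.

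The A3 serpins lie in a cluster on chromosome 12 (GRCm38.p6): Serpina3g (Gene ID 20715) at 104236147 to 104241939, Serpina3m (20717) at 104387157 to 104394259 and Serpina3n (20716) at 104406646 to 104414334. Serpina3n, an acute-phase protein related to human antichymotrypsin that inhibits granzyme B and leukocyte serine proteases, had the largest upward fold change of the 9 genes over all libraries. Its level was 7.41, 8.53 and 84.9 CPM in Control 43, 44 and 45, and 112, 308 and 290 CPM in Model 56, 57 and 59. The groups did not overlap, although Control 45 came close to Model 56. Its log2 fold change was 2.81 ± 0.78 (SE, n = 3 per group; adjusted p = 0.0136, edgeR), and 4.90 ± 0.80 on library totals. Without Control 45 it was 4.89 ± 0.48 (adjusted p = 6.63e-05, edgeR). DESeq2 gave a like fold change of 2.83 and no adjusted p for this gene.

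Serpina3m, a close paralogue, had 0.56, 0.25 and 5.09 CPM in Control and 2.86, 15.8 and 18.9 CPM in Model. Control 45 lay above Model 56, so the groups overlapped. Its log2 fold change was 2.64 ± 0.83 (SE, n = 3 per group; adjusted p = 0.025, edgeR) and 4.95 without Control 45. The call was lost without Control 43 (adjusted p = 0.0898, edgeR), Control 44 (0.0968), Model 57 (0.0514) or Model 59 (0.0657), and with limma-voom (0.163). Over the 9 libraries Serpina3m followed Serpina3n with r = 0.966 of log2 CPM. Of its 1610 stretches of 50 bases, 19.1% also occur in other genes, mainly Serpina3k, so that reads may have been divided between paralogues and its level is uncertain.

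Serpina3g encodes an intracellular inhibitor of cysteine cathepsins that is known from lymphoid and myeloid cells. Its level was 2.24, 0.64 and 1.40 CPM in Control, 0.80, 5.42 and 1.97 in Model, and 3.86, 10.0 and 1.38 in QYD 65, 66 and 68. All 3 groups overlapped. The log2 fold change in Model versus Control was 0.96 ± 0.93 (adjusted p = 0.437, edgeR), and it was -0.04 without Model 57. The highest values were in Model 57, QYD 65 and QYD 66. These are also the injured libraries with the highest summed CPM of 6 B cell markers, at 19.6, 26.3 and 28.5, against 0.76 to 2.16 in Model 56, Model 59 and QYD 68. Summed CPM of 10 T and NK cell markers were 4.58, 2.84 and 6.10 in these 3 libraries and 0.77 to 1.12 in the other injured ones. In Control 43, 44 and 45 the B cell sums were 23.8, 6.37 and 6.36 CPM. The T and NK cell sums there were 5.59, 1.15 and 1.78 CPM. Control 43 thus exceeded Model 57 in both sums but had less Serpina3g. The part of lymphocytes in the Serpina3g level was not tested. In Serpina3g 15.9% of the stretches of 50 bases are shared with other genes of the cluster, and its level is uncertain for the same reason as that of Serpina3m.

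The promoters of Serpina3n and Serpina3g are shown because these paralogues of one cluster differed in their call. Their windows are chr12:104406458-104406757 and chr12:104235897-104236196, both on the plus strand (RefSeq, GRCm38.p6), with capitals as before.
Serpina3n: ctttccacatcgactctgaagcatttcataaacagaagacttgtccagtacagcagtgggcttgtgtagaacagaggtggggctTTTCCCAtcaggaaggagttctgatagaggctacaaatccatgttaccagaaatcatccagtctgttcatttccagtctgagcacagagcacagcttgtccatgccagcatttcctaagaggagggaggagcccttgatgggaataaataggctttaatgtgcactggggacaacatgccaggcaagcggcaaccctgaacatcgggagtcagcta
Serpina3g: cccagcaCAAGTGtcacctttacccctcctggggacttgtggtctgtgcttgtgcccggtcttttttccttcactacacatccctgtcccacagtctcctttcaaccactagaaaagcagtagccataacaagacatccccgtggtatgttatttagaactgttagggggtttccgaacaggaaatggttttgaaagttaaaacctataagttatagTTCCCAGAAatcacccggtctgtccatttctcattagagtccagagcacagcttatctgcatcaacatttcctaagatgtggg
The Serpina3n window holds a TTTCCCA box at -166 and none of the other 5 motifs. The Serpina3g window holds a STAT match, TTCCCAGAA, at -33 and an E-box at -243. Neither window holds the NF-kB letters searched.

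Serpinb1a and Serpinb6a are intracellular serpins encoded on chromosome 13 (GRCm38.p6), at 32842092 to 32853206 (Gene ID 66222) and 33917918 to 34002794 (Gene ID 20719). SERPINB1 inhibits neutrophil elastase, proteinase 3 and cathepsin G, and SERPINB6 inhibits cathepsin G and trypsin-like proteases. Serpinb6a had 66, 41.9 and 85.8 CPM in Control and 160, 161 and 156 CPM in Model 56, 57 and 59. The Model libraries were nearly equal and all above Control. The log2 fold change was 1.30 ± 0.22 (SE, n = 3 per group; adjusted p = 0.000826, edgeR), and 3.45 ± 0.24 on library totals. Serpinb1a had 146, 139 and 206 CPM in Control and 373, 247 and 249 in Model, where Model 56 stood highest. The log2 fold change was 0.82 ± 0.24 (adjusted p = 0.0184, edgeR). This call was lost without Control 43 (adjusted p = 0.065, edgeR), Control 44 (0.0704) or Model 56 (0.074), with the direction kept.

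Slpi (Gene ID 20568, chromosome 2, 164354070 to 164356507, minus strand, GRCm38.p6) encodes a secreted inhibitor of neutrophil elastase made by epithelia and leukocytes. Its level was 2.24, 2.80 and 5.98 CPM in Control, and 19.2, 13.6 and 11.6 CPM in Model. All Model libraries lay above all Control libraries. The log2 fold change was 2.00 ± 0.33 (SE, n = 3 per group; adjusted p = 0.000715, edgeR), or 2.55 ± 0.33 without Control 45, and 4.16 ± 0.35 on library totals. Over the 9 libraries its nearest gene was the zinc transporter Slc39a8 (Pearson r = 0.994 of log2 CPM). The nearest to Serpina3n were Ace (0.987), Clcc1 (0.985) and Nfkbiz (0.980), the last an NF-kB cofactor. For these r values the libraries again fall into groups.

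Neutrophil markers were higher in the groups in which these 5 inhibitors were called higher. Of 11 tested neutrophil markers, 10 rose in Model versus Control, and their summed CPM, over 12 genes, were 10.4 to 44.5 in Control, 142 to 201 in Model and 162 to 301 in QYD. The Control value of 44.5 belongs to Control 45, the Control library highest in Serpina3n, Serpina3m, Serpinb1a, Serpinb6a and Slpi, and the other Control libraries had 17.1 and 10.4. Within the injured groups the order was not the same for all 5. The neutrophil sums were 201, 160 and 142 CPM in Model 56, 57 and 59 and 202, 162 and 301 in QYD 65, 66 and 68, so that they were highest in Model 56 and QYD 68, where Serpinb1a and Slpi were highest and Serpina3n lowest of their groups. The neutrophil granule gene Mpo had under 10 counts in every library. Duct cell markers, summed over 10 genes, were 790 to 927 CPM in Control, 1775 to 2814 in Model and 1505 to 2617 in QYD. The highest duct sums were in Model 56 and QYD 68 as well. The 10 duct genes did not move as one: 6 were called higher and 1 lower in Model versus Control, and 5 higher and 2 lower in QYD versus Control. On library totals 9 were called higher and 0 lower in both. The liver is the classic source of acute-phase serpins, and 11 hepatocyte markers summed to 42.8 to 69.0 CPM in Control, 23.2 to 44.7 in Model and 20.7 to 37.0 in QYD (11.8 to 16.1, 26.7 to 45.6 and 16.8 to 35.9 TPM), with Apoc3, Serpina1a, Serpina1b and Serpinc1 under 10 counts in every library. Of the 4 that were tested, 2 rose and 1 fell in Model versus Control, with a median log2 fold change of 1.15. The part of neutrophils, duct cells and hepatocytes in the inhibitor levels was not tested.

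The first of the Serpinb6a promoters is shown because it alone among the windows examined holds the STAT motif more than once. It is chr13:34002745-34003044 on the minus strand (RefSeq, GRCm38.p6).
Serpinb6a: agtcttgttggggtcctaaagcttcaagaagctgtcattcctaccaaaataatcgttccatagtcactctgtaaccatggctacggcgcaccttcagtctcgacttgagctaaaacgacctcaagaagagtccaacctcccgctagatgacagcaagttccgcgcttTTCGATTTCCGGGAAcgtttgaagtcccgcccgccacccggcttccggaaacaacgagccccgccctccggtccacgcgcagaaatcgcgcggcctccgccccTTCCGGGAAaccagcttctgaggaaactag
The STAT match TTCCGGGAA occurs at -77 and at 21, and an interferon motif on the other strand, read here as TTCGATTTC, starts at -83 and overlaps the first STAT match. The second Serpinb6a promoter holds E-boxes at -86 and -17 and an interferon motif at 5, and the Slpi promoter holds E-boxes only, at -146, -45, -37 and 22.

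Compared per transcript length, the inhibitor transcripts changed their order below Spink1. In Control, Spink1 led with 867 ± 93.7 TPM (SD, n = 3), followed by Serpini2 (278 ± 78.8), Serpinb1a (45 ± 12.6) and Serpinb6a (19.7 ± 7.27), and these 4 ranges did not overlap. Serpina3n (7.08 ± 9.52) overlapped Serpinb6a, and Serpini1, Slpi, Serpina3m and Serpina3g followed with 2.30 to 0.31 TPM, each overlapping its neighbour. In Model the order was Spink1 (1295 ± 36.1), Serpinb1a (376 ± 126), Serpinb6a (224 ± 28.1) and Serpina3n (219 ± 95.2), the last pair overlapping, then Slpi (37.2 ± 13.5), Serpini2 (18.7 ± 11.1), Serpina3m (14.8 ± 9.45), Serpini1 (4.97 ± 0.66) and Serpina3g (2.79 ± 2.58), with each of these overlapping the next. QYD had the same order as Model. Spink1 and Serpini2 together made up 93.8% ± 1.77 of the TPM of the 9 genes in Control, 60.0% ± 3.27 in Model and 63.0% ± 3.94 in QYD (SD, n = 3). Serpinb1a, Serpinb6a and Serpina3n together went from 5.78% ± 1.66 to 37.3% ± 3.07 and 34.6% ± 3.81.

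**Figure D3:**
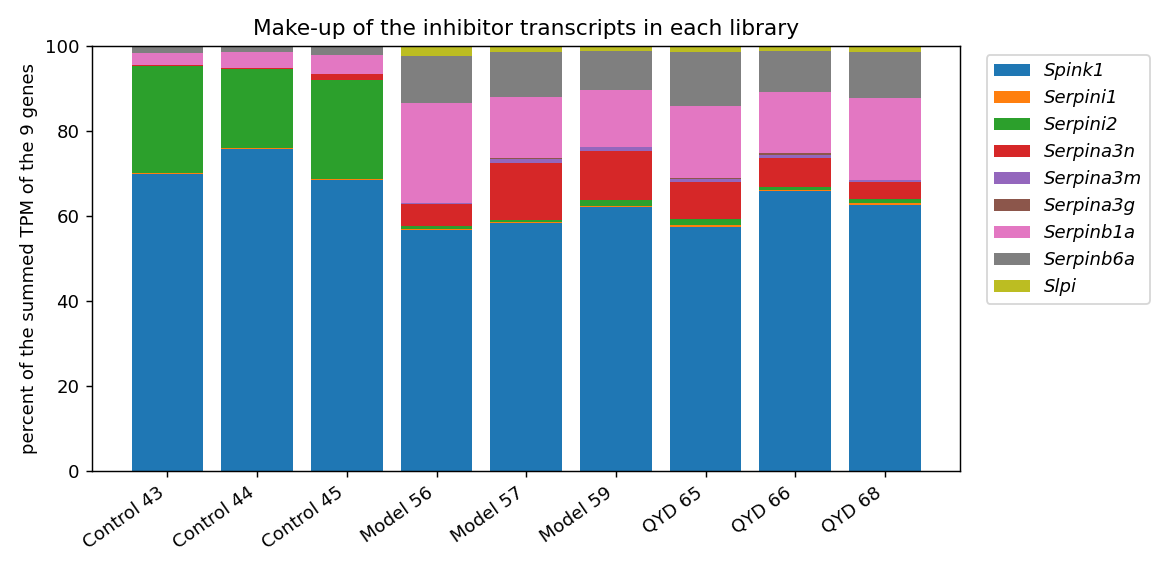
Share of each inhibitor gene in the summed TPM of the 9 genes, as percent, for each library. Serpini2 takes 18.6% to 25.3% in the Control libraries and 0.51% to 1.5% in the Model and QYD libraries, where Serpinb1a takes 13.3% to 23.5%.

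Among other inhibitors of the same families, the calls were all upward. Of 41 other serpin genes listed, only 16 passed the low-count filter, and 8 of these rose in Model versus Control (median log2 fold change 1.77, beside 0.04 over all genes), or 7 without Control 45. Over all tested genes 21.3% were called higher. On library totals 15 of the 16 were called higher, beside 94% of all genes. Serpinh1, a collagen chaperone without inhibitor function, rose by 1.96 ± 0.17, the paralogue Serpinb6b by 2.74 ± 0.34, and Serpinb9, an inhibitor of granzyme B, by 2.68 ± 0.42 on the log2 scale (SE, edgeR). Of 20 other Kazal, WAP and Kunitz inhibitor genes 8 were tested and 5 rose, with a median of 1.89, and all 8 were called higher on library totals. Among them the WAP genes Wfdc2, Wfdc21 and Wfdc17 rose by 2.31 ± 0.33, 3.34 ± 0.57 and 1.48 ± 0.39. In Control 43, 44 and 45, Wfdc2 had only 3, 5 and 5 estimated counts and Wfdc21 had 2, 0 and 2. The sizes of these changes are therefore uncertain. Plasma-type inhibitors went the other way on the TMM scale, with 3 of 5 tested genes lower and 1 higher, and on library totals none lower and 2 higher. Itih2, Itih4 and Itih5 fell by 1.87, 2.39 and 1.96, with library-total values of 0.27, -0.24 and 0.20 that did not pass.

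Transcripts of leukocyte serine proteases, which several of these inhibitors block, were low. Neutrophils carry such proteases as stored protein, which was not measured. Of 10 serine protease genes of neutrophils, cytotoxic cells and mast cells in the table, only Gzmb and Gzma were high enough to be tested, and neither was called in any of the 3 comparisons (on library totals both were called higher in Model and in QYD than in Control). Gzmb had 0.66 ± 0.51 CPM in Control and 1.98 ± 1.61 in Model (SD, n = 3). Of the plasminogen system, the receptor Plaur rose by 1.83 ± 0.36 and the activator Plau fell by 1.45 on the log2 scale (SE 0.33), while on library totals Plau stood at 0.71 (adjusted p = 0.0838, edgeR).

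Qingyi Decoction did not move any of the 9 genes past the threshold. In QYD versus Model edgeR called 0 of the 9 genes, and 0% of all 12828 tested genes; DESeq2 called 0 genes as well and limma-voom 1, the histone gene Hist2h2aa2, named here after its result was seen. At an unadjusted p under 0.05 edgeR counted 750 genes, among them 1 of the 9, Serpini1. The median log2 fold change of the 9 genes was 0.19, beside 0.01 over all genes. Serpini1 had 13, 11.7 and 16.5 CPM in QYD 65, 66 and 68, all above the 6.64 to 8.90 of Model and overlapping the 14.8 to 19.0 of Control. Its log2 fold change was 0.78 ± 0.17 (95% interval 0.41 to 1.14; unadjusted p = 0.000634, adjusted p = 0.826, edgeR; 0.204 with DESeq2). Serpinb6a had 167, 184 and 219 CPM in QYD, also all above Model (0.25 ± 0.21, 95% interval -0.21 to 0.72, adjusted p = 0.86, edgeR). Non-overlap of this kind, 2 of the 9 genes and both upward, occurred in 8.56% of all tested genes upward, 8.18% downward and 16.7% in either direction.

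The 95% intervals of the other genes bound the difference between QYD and Model. For Spink1, at 165, 275 and 274 CPM in QYD, the log2 fold change was 0.19 with a 95% interval of -0.25 to 0.63. For Serpini2, at 16.0, 14.9 and 20.5 CPM, it was 0.31 (-0.57 to 1.2), and 1.07 without Model 59. Both acinar inhibitors overlapped their Model range and lay below every Control library (above it for Spink1 on library totals). Slpi, at 10.2, 11.7 and 15.6 CPM, stood at -0.24 (-0.82 to 0.33), and Serpinb1a, at 240.0, 300.2 and 419 CPM, at 0.14 (-0.38 to 0.67), with -0.02 on library totals and -0.10 without QYD 68. Serpina3n, at 172, 194 and 122 CPM, stood at -0.54 (-2.12 to 1.03). The A3 genes had the widest intervals: Serpina3m, at 9.09, 14.6 and 9.31 CPM, stood at -0.18 (-1.51 to 1.14), a value that turned to 0.02 without Model 57 and 0.24 without Model 59. Serpina3g stood at 0.90 (-0.61 to 2.41), with 1.90 without Model 57 and -0.04 without QYD 66. In none of the family and protease lists was a gene called in QYD versus Model.

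**Figure D4:**
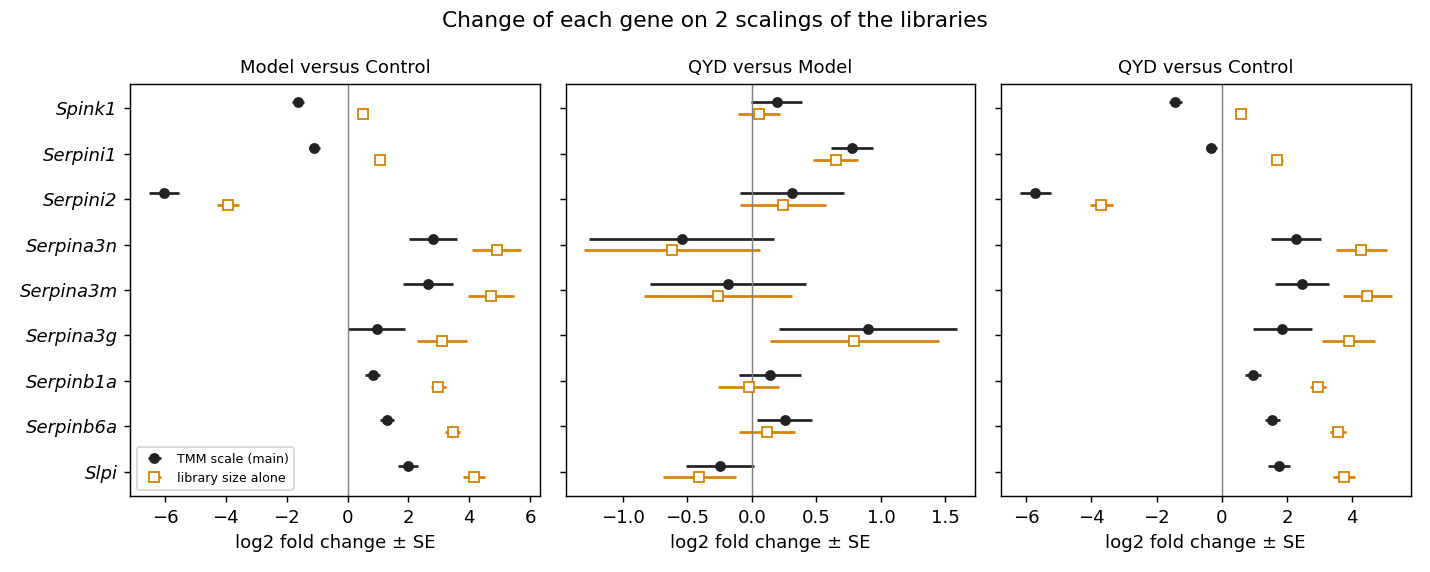
Log2 fold change ± SE of each inhibitor gene in the 3 comparisons, on the TMM scale (filled circles) and on library totals alone (open squares), with n = 3 libraries per group; the middle panel has a narrower axis. In both comparisons with Control, Spink1 and Serpini1 lie left of 0 on the TMM scale and right of 0 on library totals, and Serpini2 lies left of 0 on both.

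QYD versus Control uses the same Control libraries as Model versus Control, so the pair of comparisons is not independent and their values are only set side by side. Of the 9 genes 7 were called, 5 higher and 2 lower, beside 40.7% of all tested genes (20.5% and 20.3%). The libraries of 7 genes did not overlap, 5 higher and 2 lower, beside 52.5% of all genes (27.8% and 24.7%). On library totals 8 were called higher and 1 lower, beside 93.8% and 0.99%. Serpini2 fell by 5.72 (SE 0.48) with -3.70 on library totals, and Spink1 by 1.43 (SE 0.20), with 0.58 on library totals. Serpini1, called in Model versus Control, was not called here (-0.32 ± 0.17, adjusted p = 0.159, edgeR; 1.70 on library totals). Serpinb6a rose by 1.56 ± 0.22, Slpi by 1.76 ± 0.33 and Serpinb1a by 0.97 ± 0.24 on the log2 scale.

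The A3 calls in QYD versus Control rested on few libraries. Serpina3n stood at 2.27 ± 0.76 (adjusted p = 0.0346, edgeR) and at 4.35 without Control 45, and lost its call without Control 43 (0.085), Control 44 (0.102), QYD 65 (0.0712) or QYD 66 (0.0786). Serpina3m stood at 2.46 ± 0.84 (adjusted p = 0.0362, edgeR) and at 4.76 without Control 45. It lost its call without any other of the Control or QYD libraries, with adjusted p from 0.0514 to 0.133, and with DESeq2 (0.0598) and limma-voom (0.136). Serpina3g was not called (1.85 ± 0.90, adjusted p = 0.122, edgeR), but passed without QYD 68 (2.30, adjusted p = 0.0467, edgeR). Leaving out Control 43, Control 44, QYD 65 or QYD 66 in turn reduced the called genes from 7 to 5.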

How the data were processed

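The deposited table gives, per the file headers, read counts and TPM for each gene and library. The values read as counts are taken as the authors' estimated counts from RSEM, since 93.5% of them were whole numbers and the rest were not; they were rounded before testing. TPM were used as deposited by the authors, for comparisons between genes and for the ratio of Spink1 to trypsinogens. Per the submitters' processing notes, the genome build was GRCm38.p6 and the tools were RSEM 1.2.12, HISAT2 2.0.4 and Bowtie2 2.2.5, in roles that are not given. Whether libraries and counting kept the strand is not stated. Gene IDs of 17031 of the 17132 genes matched the RefSeq table of GRCm38.p6, the source of all coordinates.

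Estimated counts of all 9 libraries were fitted in 1 edgeR 4.0.16 quasi-likelihood model in R 4.3.3 with group as its only term (6 residual degrees of freedom). The default filter kept 12828 genes, all 9 inhibitors among them, and removed 4304, and libraries were scaled by TMM (factors 0.36 to 0.40 in Control, 1.52 to 1.82 in Model and 1.36 to 1.79 in QYD). P-values were adjusted over all tested genes by the Benjamini-Hochberg method at 0.05. The SE is the log2 fold change divided by the square root of F. The common biological coefficient of variation was 0.175. The labels number the libraries by mouse but do not say more of their origin, so p-values measure the spread between these libraries.

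All 9 inhibitors are described in every comparison. Of each family or protease list at most 3 genes with the smallest p in Model versus Control and a mean of at least 1 CPM are named, with all chromosome 3 neighbours. The genes most like an inhibitor are the 3 with the highest Pearson correlation among genes of at least 10 CPM without a predicted or clone name; some genes that these rules select are not reported here. The inhibitors, lists and tests were chosen with earlier results of these data known. Sharing of 50-base stretches was counted over annotated transcripts. Promoters of Serpina3m and Serpinb1a were not used here, nor was that of Spink1. Alternatives were RLE scaling, library totals alone, TMM without the 50 most abundant genes, other low-count filters (none, or 5 CPM in 3 libraries), DESeq2 1.42.0, only the compared groups in the model, voom with sample weights (limma 3.58.1), an adjusted p of 0.1, limma on log2(TPM + 1) and log2(TPM + 0.1) with TPM of at least 1 in 3 libraries, log2(TPM + 1) without a filter, and each library left out in turn.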

Additional observations from a re-analysis of the deposited data

How the results depend on the processing

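Of 567 values of a single inhibitor under an alternative, 19 lost a call, 8 gained one and 27 changed sign. The other 513 kept their direction and, where an adjusted p was given, their side of the threshold. Serpina3n had none with DESeq2 in Model versus Control or in QYD versus Model, and values without an adjusted p were counted among the 513 by their direction alone. With 3 libraries a group, only large changes of the A3 serpins can be told from their spread. The genes called in Model versus Control went from 5464 to 12185 on library totals (12064 higher, 121 lower), 10238 with log2(TPM + 1), 10228 with log2(TPM + 0.1) and 12732 with log2(TPM + 1) without a filter. In QYD versus Control they went from 5222 to 12155, 10212, 10202 and 12508 under the same settings. These settings carry no correction for composition. In QYD versus Model they went from 0 to 1 with limma-voom, log2(TPM + 1) and log2(TPM + 0.1), Hist2h2aa2 each time, and to 2 (with Sct) without a filter; the cause was not tested.

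Signs changed as follows, in the order library totals, log2(TPM + 1), log2(TPM + 0.1) and log2(TPM + 1) without a filter. In Model versus Control, Spink1 went from -1.62 to 0.52, 0.58, 0.58 and 0.58, and Serpini1 from -1.10 to 1.05, 0.85, 1.08 and 0.85. In QYD versus Control, Spink1 went from -1.43 to 0.58, 0.62, 0.62 and 0.62, and Serpini1 from -0.32 to 1.70, 1.37, 1.67 and 1.37. In QYD versus Model, Serpinb1a went from 0.14 to -0.025, -0.020, -0.020 and -0.020. Serpina3m in QYD versus Model went from -0.18 to 0.15 with limma-voom and 0.012 with log2(TPM + 0.1). With each library left out in turn, Serpina3m in QYD versus Model ranged from -0.66 to 0.24 and Serpinb1a from -0.10 to 0.37. Serpina3g ranged from -0.043 to 1.42 in Model versus Control and from -0.043 to 1.90 in QYD versus Model. The cause of these changes was not tested.

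By the same omissions, 4583 to 5307 genes were called in Model versus Control, 0 in QYD versus Model and 4237 to 5139 in QYD versus Control. Of the 9 inhibitors, 6 to 8, 0 and 5 to 7 were called in the same order. The log2 difference of Spink1 per trypsinogen ranged from 0.94 to 1.04 in Model versus Control, -0.34 to -0.08 in QYD versus Model and 0.67 to 0.93 in QYD versus Control. No paired analysis was possible because the groups share no mouse numbers.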

Other observations

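Within the injured groups the inhibitors did not all follow one order of libraries. Model 56 had the highest Slpi (19.2 CPM) and Serpinb1a (373 CPM) of its group and the lowest Serpina3n (112 CPM), Serpina3m (2.86 CPM) and Serpina3g (0.80 CPM). QYD 68 likewise had the highest Slpi (15.6 CPM), Serpinb1a (419 CPM) and Serpinb6a (219 CPM) of its group and the lowest Serpina3n (122 CPM) and Serpina3g (1.38 CPM). These were the libraries with the highest summed duct cell markers (2814 and 2617 CPM) and neutrophil markers (201 and 301 CPM) of their groups, and with low summed B cell markers, at 1.26 and 2.16 CPM. With 3 libraries a group no test of this order was made.

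On the TMM scale QYD 65 stood lowest of all 9 libraries in Spink1 (165 CPM), and QYD 66 and QYD 68, at 275 and 274 CPM, stood above every Model library. In TPM, QYD 65 stood above every Control library in Spink1, at 1127 against 761 to 938. The transcripts of the 9 inhibitors summed to 1222 ± 193 TPM in Control, 2193 ± 81.8 in Model and 2149 ± 190 in QYD (SD, n = 3).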
